A study of Mus musculus with 6 samples.

Results

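The genes described here encode subunits of mitochondrial respiratory complexes III, IV and V, the electron carrier cytochrome c, and the 2 carriers that exchange ADP for ATP across the inner mitochondrial membrane. They were chosen by name from a list of 31 genes and not by their values, though earlier results of these data were known. Of these, 30 were measured among the 18193 genes of the arrays: 8 of complex III with cytochrome c, 5 of complex IV, 15 of complex V and the 2 carriers. No probe set used here was named to Cox7b alone, so this complex IV subunit has no value. RNA from cells taken out of mouse hearts was measured on 6 Affymetrix arrays of 1 colour, in 3 groups of 2. Neonatal cardiomyocytes, the contractile cells of the heart, and neonatal cardiac fibroblasts, its matrix-producing cells, came from C57BL/6J mice of both sexes at postnatal day 1 and were parted on Percoll, a density medium. Adult cardiomyocytes came from C57BL/6J males aged 8 weeks, by Langendorff perfusion, in which enzymes are passed through the vessels of the isolated heart. Sex and isolation method therefore changed together with age, and their parts cannot be told apart. The labels also give digestion by trypsin and collagenase for all cells, and name no transgene or treatment. Whether the pair of arrays in a group stands for separate preparations is not given, so the p-values measure only how far these arrays differ, and that may be technical.

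As background, complex III passes electrons from ubiquinol to cytochrome c, and complex IV passes them on to oxygen. Both pump protons out of the matrix, and complex V, the ATP synthase, lets protons return through a ring of c subunits to make ATP. The ADP/ATP carriers then export the ATP to the cytosol. Heart muscle is among the tissues richest in mitochondria, and newborn cardiomyocytes shift from glycolysis to fatty acid oxidation after birth.

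Groups followed the source name and cell type labels, but on both neonatal replicate 1 arrays the title gives the opposite cell type. On the arrays labelled neonatal cardiomyocytes, the median of 10 cardiomyocyte markers was 14.02 and 13.54 for replicates 1 and 2, against 7.56 and 10.78 on those labelled fibroblasts and 14.14 and 14.04 on the adult arrays. The median of 10 fibroblast markers was 11.05 and 9.94, 12.97 and 12.12, and 8.40 and 10.42 for the same 3 groups. The cardiomyocyte marker median was thus higher on fibroblast replicate 2 than on replicate 1. By the titles, the array with the cardiomyocyte marker median of 14.02 would be a fibroblast array. That with 7.56 would be a cardiomyocyte array. The median of 10 leukocyte markers was 12.10 and 9.39 on the fibroblast arrays and between 5.53 and 8.51 on the others. The median of 10 endothelial markers ranged from 5.91 to 9.54, that of 8 smooth muscle markers from 7.57 to 9.84, and that of 3 measured erythroid markers from 4.0 to 4.57. Values throughout are log2 RMA signals, differences are between group means on that scale, and SE is limma's standard error. A gene was called when its limma p-value was under 0.05 after Benjamini-Hochberg adjustment across the 18193 genes. Genes said to have risen or fallen in a comparison were called higher or lower there, so genes outside such counts can still have differed.

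As a group, the respiratory genes were lowest on the 2 fibroblast arrays. The median over the 30 genes was 11.80 and 12.24 in neonatal fibroblasts, 13.44 and 13.25 in neonatal cardiomyocytes and 13.59 and 13.61 in adult cardiomyocytes. The median over all genes stayed between 6.46 and 6.67 on the 6 arrays. Between the fibroblast arrays, 28 of the 30 genes were higher on replicate 2, the array with the higher cardiomyocyte marker median. The median over the genes of replicate 1 minus replicate 2 was −0.44 in fibroblasts, 0.17 in neonatal cardiomyocytes and −0.05 in adult cardiomyocytes. In bulk RNA, fewer cells of a type and less RNA per cell cannot be told apart. The part of cardiomyocyte and leukocyte transcripts in the fibroblast values was not tested. The part of fibroblast transcripts in the cardiomyocyte values was not tested either. Adult minus neonatal cardiomyocytes, the median difference of the 10 fibroblast markers was −1.19, with 8 lower, 2 higher and 0 called by limma. On the arrays labelled cardiomyocytes, 8 of the genes exceeded 14 somewhere before rounding, close to the highest signal of the arrays, where RMA signals can be compressed.

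**Figure D1:**
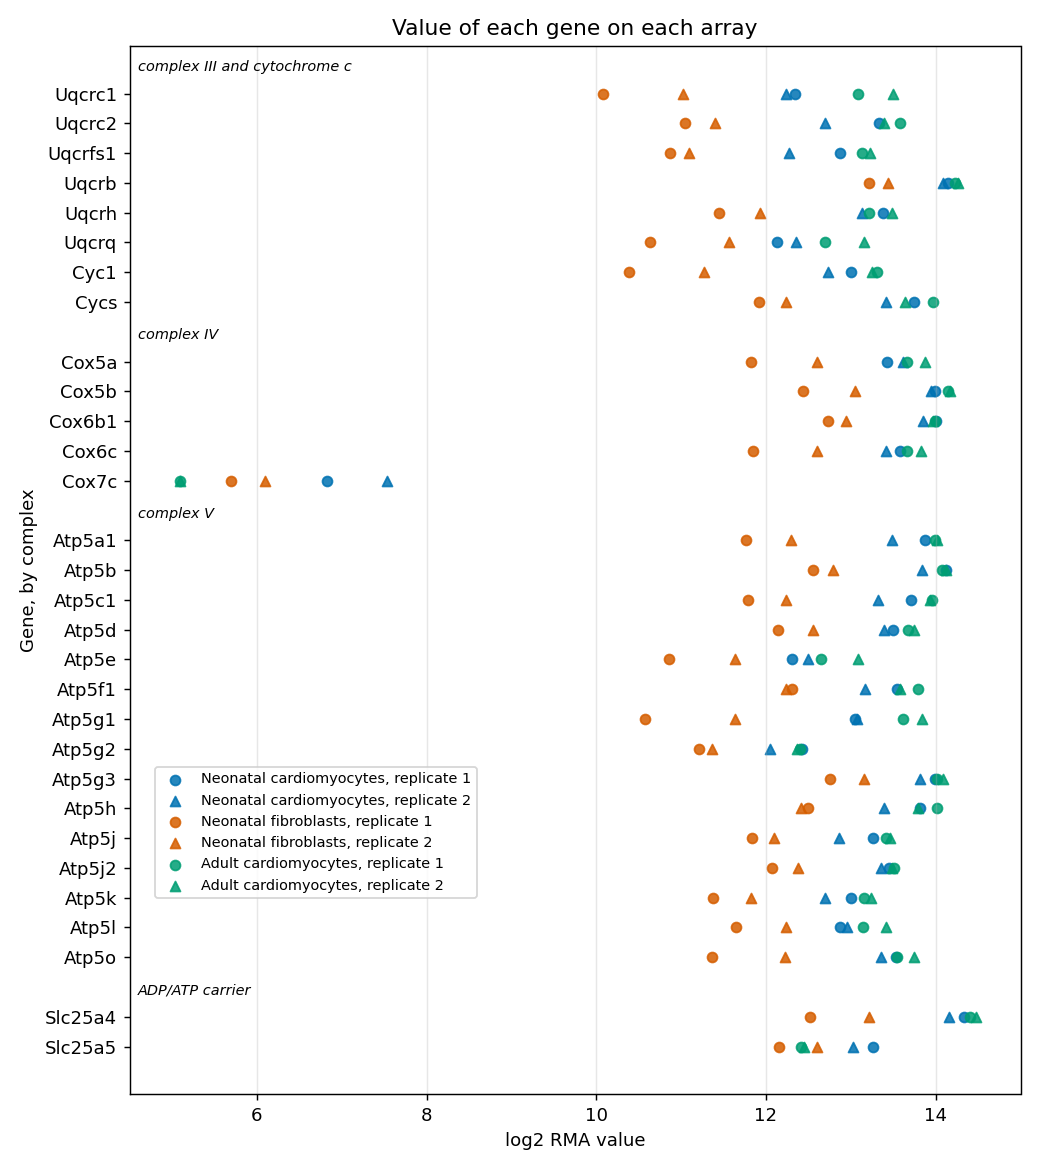
Log2 RMA signal of each of the 30 measured genes (rows) on the 6 arrays, with 1 point per array, the groups told apart by colour and the replicates by shape. The fibroblast points lie left of all cardiomyocyte points except for Cox7c, whose adult points at 5.09 lie left of the fibroblast points at 5.69 and 6.09, and Slc25a5, whose adult points at 12.41 and 12.45 lie between the fibroblast points.

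**Figure D2:**
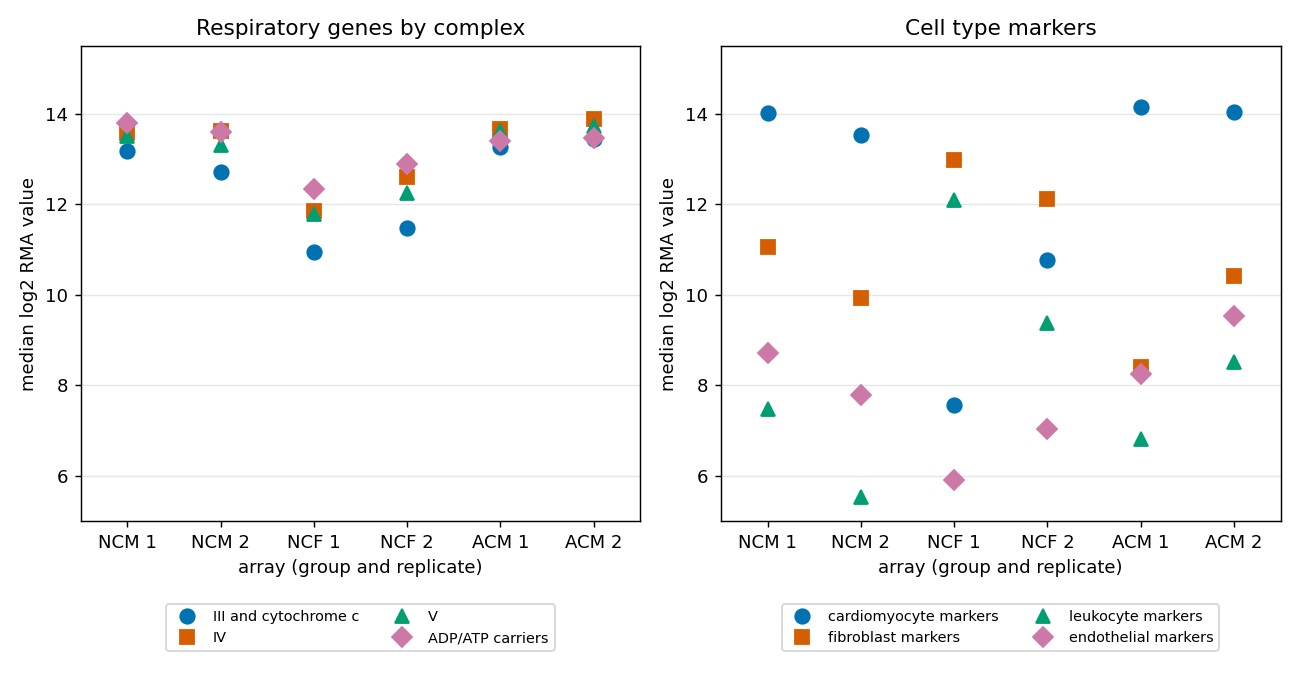
Median log2 RMA signal over the members of each complex on each array; NCM is neonatal cardiomyocytes, NCF neonatal cardiac fibroblasts and ACM adult cardiomyocytes, with the replicate number. Each of the 4 medians is lowest on fibroblast replicate 1 and next lowest on fibroblast replicate 2; the carriers' median is 13.40 and 13.47 on the adult arrays, below the neonatal cardiomyocyte values of 13.80 and 13.60.

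The 3 comparisons share groups, so they are not independent of each other. In neonatal cardiomyocytes against fibroblasts, all 30 genes had the higher mean in cardiomyocytes, as did 47.4% of all genes, with a median difference of 1.26 (all genes, −0.02) and a range from 0.77 for Slc25a5 to 2.03 for Cyc1, or 1.70 to 4.10-fold. The groups' arrays did not overlap for any of the 30; over all genes, 22.3% were higher without overlap. Limma called 0 of the 30, against 0.819% of all genes, with adjusted p from 0.0619 to 0.223. At an unadjusted p under 0.05, all 30 passed, against 8.95% of all genes in that direction, and each 95% interval lay above 0. The count called became 4 without fibroblast replicate 2 (Cyc1, Uqcrc1, Atp5g1 and Atp5o) and 2 without cardiomyocyte replicate 2 (Uqcrc2 and Uqcrfs1). With the 2 arrays regrouped by their titles, the median difference was −0.33 and 1 of the 30 genes, Cox7c, was higher in cardiomyocytes. That grouping places the array with a cardiomyocyte marker median of 7.56 among the cardiomyocytes and that with 14.02 among the fibroblasts.

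In adult cardiomyocytes against neonatal fibroblasts, 28 of the 30 genes rose, by 0.92 for Uqcrb to 2.74 for Uqcrc1, with limma's adjusted p from 0.00922 to 0.0277. Cell type changed here together with age, sex and isolation method, and their parts cannot be told apart. Over all genes, 10.1% were called higher and 21.0% in either direction. The median difference was 1.54 (all genes, 0.09), and the arrays of these 28 did not overlap, against 37.8% of all genes in that direction. Slc25a5 and Cox7c were not called. The count depended on single arrays: it was 6 without fibroblast replicate 1, 24 without fibroblast replicate 2, and 0 without adult replicate 1, without adult replicate 2, without the 2 arrays of conflicting title, or with the titles' groups. In each of these settings but the last, 28 genes were higher at an unadjusted p under 0.05, as they were with all arrays (17.7% of all genes); with the titles' groups, 0 were.

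Between adult and neonatal cardiomyocytes the differences were smaller in the median. Of the 30 genes, 28 had a higher mean in the adult cells, as did 57.4% of all genes, with a median difference of 0.26 (all genes, 0.09). The arrays did not overlap for 22 genes higher in the adult, against 33.9% of all genes, and for 2 lower (Cox7c and Slc25a5), against 23.8%. Limma called 1 gene, Cox7c, which was lower in the adult; 2.30% of all genes were called, and 1.22% of all genes were called lower. At an unadjusted p under 0.05, Uqcrc1 and Slc25a5 passed as well, so 3 of the 30 did, against 22.8% of all genes in either direction. For the other 27 genes the 95% interval of the difference included 0 and reached as high as 1.61. Differences of that size were therefore not shown to be absent. Each SE and interval used a spread shared by all 3 groups. The median SD of the 30 genes was 0.31 in fibroblasts, 0.16 in neonatal and 0.06 in adult cardiomyocytes. When limma fitted only the 2 groups compared, 5 of the 30 had an unadjusted p under 0.05, 3 of them higher in the adult. That fit called 0 of the 30 and 164 of the 18193 genes.

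**Figure D3:**
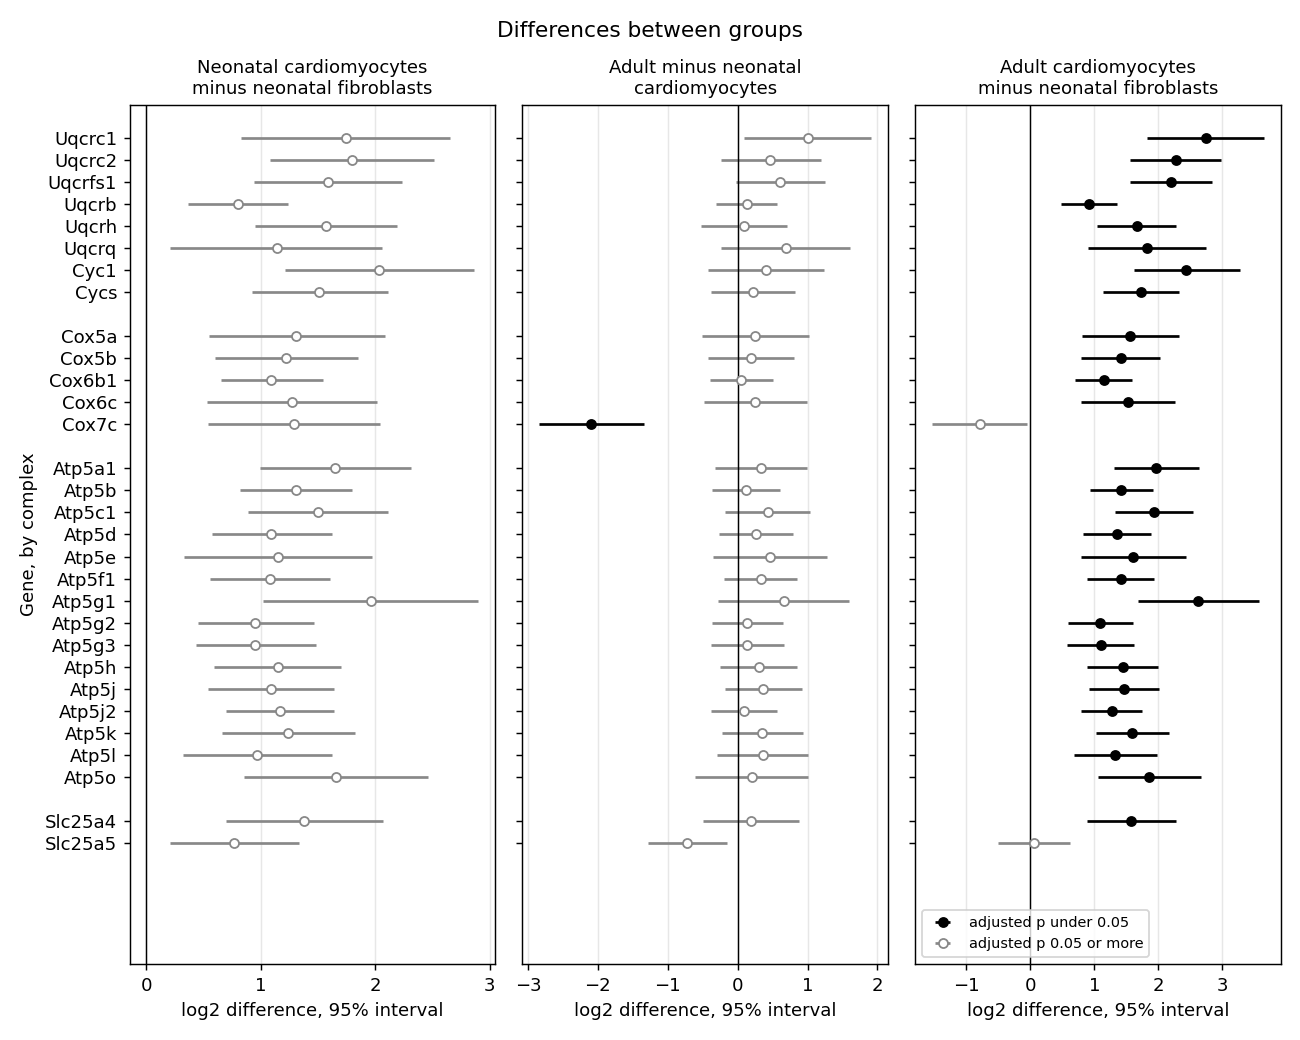
Log2 difference of group means for each of the 30 genes in the 3 comparisons, with bars for the 95% interval; filled black points have an adjusted p under 0.05. All 30 points lie above 0 in the neonatal comparison without a filled point, 28 are filled in adult cardiomyocytes against fibroblasts, and Cox7c at −2.09 is the filled point of adult against neonatal cardiomyocytes.

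Complex III and cytochrome c had the largest median differences among the 4 groups of members, a description that was not tested. Their median difference was 1.58 in neonatal cardiomyocytes against fibroblasts, 0.44 in adult against neonatal cardiomyocytes and 2.01 in adult cardiomyocytes against fibroblasts. In the last comparison all 8 rose. Values of a gene are given as pairs of replicates 1 and 2, first for fibroblasts, then for neonatal and then for adult cardiomyocytes unless another order is stated. Uqcrc1, a core protein on the matrix side of the complex, measured 10.08 and 11.02 in fibroblasts, 12.34 and 12.24 in neonatal cardiomyocytes and 13.08 and 13.50 in adult cardiomyocytes. The 3 groups of arrays did not overlap and stood in that order. Uqcrc1 was 2.74 higher in adult cardiomyocytes than in fibroblasts (SE 0.36, 6.67-fold, adjusted p = 0.0116 by limma). Its adult minus neonatal difference of 1.00 (SE 0.36, 95% interval 0.09 to 1.91) had an unadjusted p of 0.0371 and an adjusted p of 0.192 by limma, so it was not called. The other core protein, Uqcrc2, measured 11.04 and 11.40 in fibroblasts, 13.33 and 12.69 in neonatal cardiomyocytes and 13.58 and 13.39 in adult ones.

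Cyc1 and Uqcrfs1 carry redox centres of complex III: Cyc1 is its heme protein cytochrome c1, and Uqcrfs1 is the Rieske iron-sulfur protein. Cyc1 measured 10.39 and 11.27 in fibroblasts, 13.00 and 12.73 in neonatal cardiomyocytes and 13.31 and 13.25 in adult cardiomyocytes. Both cardiomyocyte groups lay clear of the fibroblast arrays, and the neonatal difference of 2.03 (SE 0.33, adjusted p = 0.0668 by limma) was the largest among the 30 genes in that comparison. Uqcrfs1 measured 10.87 and 11.09, 12.87 and 12.27, and 13.13 and 13.23 for the 3 groups, and its adult minus fibroblast difference of 2.2 (SE 0.25) had the smallest adjusted p of the members, 0.00922 by limma. Cycs, the soluble cytochrome c that carries electrons on to complex IV, measured 11.92 and 12.24, 13.75 and 13.42, and 13.97 and 13.64. All 4 of its probe sets were higher in cardiomyocytes of both ages than in fibroblasts, by 0.90 to 2.08 in the neonatal comparison and 1.59 to 2.74 in the adult one.

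The remaining subunits of complex III are small accessory proteins. Uqcrh, the acidic hinge protein at the cytochrome c1 side, measured 11.45 and 11.93 in fibroblasts, 13.38 and 13.13 in neonatal cardiomyocytes and 13.21 and 13.48 in adult ones. The cardiomyocyte arrays of both ages overlapped for Uqcrh, with a difference of 0.09 (SE 0.24), the smallest of complex III between the ages. Uqcrq measured 10.63 and 11.56, 12.13 and 12.35, and 12.70 and 13.15 for the 3 groups. Uqcrb measured 13.21 and 13.44, 14.15 and 14.09, and 14.23 and 14.26, close to the top of the range in cardiomyocytes. Uqcrb had the smallest differences of complex III from fibroblasts, 0.80 (SE 0.17) for neonatal and 0.92 (SE 0.17) for adult cardiomyocytes. Of the 4 probe sets of Uqcrq, 1 was higher in neonatal cardiomyocytes than in fibroblasts, the one used. In the other comparisons 3 of 4 had its sign. The lowest differences were −0.14 in the neonatal comparison, −0.10 between the ages and −0.11 in adult cardiomyocytes against fibroblasts. The probe sets not used gave low signals, between 4.48 and 6.35 on the arrays.

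In complex IV, 4 of the 5 measured members rose in adult cardiomyocytes against fibroblasts and the fifth, Cox7c, was not called there. The median difference of the 5 was 1.27 in the neonatal comparison, 0.19 between the ages and 1.41 in the adult comparison. Cox5a, a matrix-side subunit, measured 11.82 and 12.60 in fibroblasts, 13.43 and 13.61 in neonatal cardiomyocytes and 13.66 and 13.88 in adult ones. Cox5b, which binds zinc, measured 12.44 and 13.05, 13.99 and 13.95, and 14.15 and 14.17 in that order. Cox6c, a membrane-spanning subunit, measured 11.85 and 12.60, 13.58 and 13.41, and 13.66 and 13.83. In all 3 genes fibroblast replicate 2 exceeded replicate 1 by more than the cardiomyocyte arrays differed from each other within a group. Cox6b1, on the side facing cytochrome c, measured 12.73 and 12.94, 14 and 13.85, and 13.99 and 13.97. Cox6b1 differed least of the 4 from fibroblasts, by 1.09 (SE 0.17) in neonatal and 1.15 (SE 0.17) in adult cardiomyocytes, the latter with adjusted p = 0.0153 by limma. Between the ages, where these genes differed little, probe sets were not of 1 sign. The sign of the one used was shared by 2 of 3 probe sets of Cox5a (lowest −0.05), 5 of 6 of Cox5b (lowest −0.23) and 1 of 2 of Cox6b1, where the other gave −0.15. The same probe set count, 5 of 6, held for Cox5b in adult cardiomyocytes against fibroblasts, with the lowest at −0.08.

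Cox7c, a small membrane subunit of complex IV, gave a low signal that was lower still in adult cardiomyocytes. Its probe set measured 6.83 and 7.53 in neonatal cardiomyocytes, 5.69 and 6.09 in fibroblasts and 5.09 and 5.09 in adult cardiomyocytes. The adult arrays were the lowest and the neonatal cardiomyocyte arrays the highest, without overlap. The adult minus neonatal difference was −2.09 (SE 0.29, 4.25-fold lower, adjusted p = 0.0425 by limma), and the adult minus fibroblast difference was −0.79 (SE 0.29, adjusted p = 0.119), not called. The second probe set of Cox7c gave an adult minus neonatal difference of −1.54. The signal of the probe set used lay between percentiles 28.6 and 59.4 of all genes on the 6 arrays. The other 29 members lay at percentile 90.2 or above on every array. Whether the Cox7c probe sets report the main transcript of the gene was not tested. The call ended when any single array was left out, with adjusted p from 0.0518 to 0.227 and a difference from −2.44 to −1.73, and it ended with the mean of both probe sets (adjusted p = 0.0592).

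All 15 complex V genes were higher in neonatal cardiomyocytes than in fibroblasts, with a median difference of 1.15, and 0 were called by limma, though all 15 had an unadjusted p under 0.05. All 15 rose in adult cardiomyocytes against fibroblasts, with a median of 1.45. Between the ages the median was 0.33, and 0 of 15 were called, with 0 under an unadjusted p of 0.05. The catalytic head of the enzyme is built of alpha and beta subunits around the rotating gamma, delta and epsilon subunits. Atp5a1, the alpha subunit, measured 11.76 and 12.30 in fibroblasts, 13.88 and 13.48 in neonatal cardiomyocytes and 13.99 and 14.02 in adult ones. Atp5b, the beta subunit that holds the catalytic sites, measured 12.56 and 12.79, 14.12 and 13.84, and 14.08 and 14.12. Atp5b had the smallest adjusted p of all members in the neonatal comparison, 0.0619 by limma, for a difference of 1.31 (SE 0.19). For both genes every fibroblast array lay below every cardiomyocyte array. Atp5c1, the gamma subunit, measured 11.79 and 12.24, 13.71 and 13.32, and 13.96 and 13.93. Its 2 probe sets differed in sign between adult cardiomyocytes and fibroblasts, at 1.93 for the one used and −0.75 for the other. They also did between the ages, at 0.43 and −0.81. The probe set not used gave a low signal, between 5.02 and 6.25 on the arrays. Atp5d, the delta subunit, measured 12.14 and 12.56, 13.50 and 13.39, and 13.67 and 13.74. Atp5e, the epsilon subunit, measured 10.86 and 11.64, 12.31 and 12.49, and 12.65 and 13.08. The fibroblast arrays were again the lowest for these 3 rotor genes. For the 5 head and rotor genes the adult minus fibroblast difference ran from 1.35 (Atp5d) to 1.97 (Atp5a1).

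The stalk at the side of the enzyme holds the head still while the ring turns. Atp5f1, listed by the platform as Atp5pb and encoding subunit b, measured 12.31 and 12.24 in fibroblasts, 13.55 and 13.17 in neonatal cardiomyocytes and 13.79 and 13.58 in adult ones. Atp5h, subunit d, measured 12.50 and 12.41, 13.82 and 13.39, and 14.01 and 13.79. These were the 2 genes of the 30 with a higher value on fibroblast replicate 1 than on replicate 2. Atp5j, coupling factor 6, measured 11.84 and 12.10, 13.26 and 12.86, and 13.41 and 13.46. Atp5o, the oligomycin sensitivity conferring protein that joins the stalk to the head, measured 11.36 and 12.22, 13.53 and 13.36, and 13.54 and 13.74. Atp5o had the largest stalk difference from fibroblasts, 1.66 (SE 0.32) in neonatal and 1.85 (SE 0.32, adjusted p = 0.0194 by limma) in adult cardiomyocytes. Between the ages its 2 probe sets differed in sign, at 0.20 for the one used and −0.08 for the other. Subunits f, e and g lie in the membrane beside the ring, and e and g take part in joining ATP synthases into dimers. Atp5j2, subunit f, measured 12.07 and 12.38, 13.45 and 13.35, and 13.51 and 13.48, and its adult minus neonatal difference of 0.09 (SE 0.19) was the smallest of complex V. Atp5k, subunit e, measured 11.38 and 11.82, 13.00 and 12.69, and 13.15 and 13.24. Atp5l, subunit g, measured 11.65 and 12.24, 12.87 and 12.96, and 13.14 and 13.41. For all 3 the fibroblast arrays lay below every cardiomyocyte array.

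Subunit c of the ring is encoded by 3 genes, Atp5g1, Atp5g2 and Atp5g3, whose mature proteins are identical after the targeting sequence is removed. The carrier is likewise encoded by related genes, Slc25a4 for ADP/ATP translocase 1, the form of heart and skeletal muscle, and Slc25a5 for translocase 2, found in many tissues and linked to growth. The genes of each set make the same or a like product, but their values did not all move equally far. The promoters of these 5 genes are therefore shown. Each is the 250 bases before the RefSeq start (build GRCm38.p6), written 5′ to 3′ on the gene's strand. They are chr8:46211063-46211312 (minus strand) for Slc25a4, chrX:36795347-36795596 (plus) for Slc25a5, chr11:96075632-96075881 (minus) for Atp5g1, chr15:102671048-102671297 (minus) for Atp5g2 and chr2:73911327-73911576 (minus) for Atp5g3. Capitals mark a match to a motif of 4 kinds of factor known to act on respiratory genes.
Slc25a4: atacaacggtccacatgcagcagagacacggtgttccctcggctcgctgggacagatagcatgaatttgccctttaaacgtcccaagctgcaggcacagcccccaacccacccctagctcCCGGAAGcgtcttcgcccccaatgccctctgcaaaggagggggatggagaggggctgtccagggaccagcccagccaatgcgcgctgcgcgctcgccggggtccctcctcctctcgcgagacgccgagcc
Slc25a5: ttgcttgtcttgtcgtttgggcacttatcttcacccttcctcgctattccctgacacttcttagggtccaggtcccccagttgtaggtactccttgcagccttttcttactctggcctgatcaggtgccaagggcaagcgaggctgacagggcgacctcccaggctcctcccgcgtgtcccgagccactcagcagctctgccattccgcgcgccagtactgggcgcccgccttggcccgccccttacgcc
Atp5g1: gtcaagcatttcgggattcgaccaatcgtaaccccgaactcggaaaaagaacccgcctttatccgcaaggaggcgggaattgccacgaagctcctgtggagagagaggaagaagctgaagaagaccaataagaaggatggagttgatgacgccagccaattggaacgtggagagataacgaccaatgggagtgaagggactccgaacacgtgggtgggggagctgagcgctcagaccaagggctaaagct
Atp5g2: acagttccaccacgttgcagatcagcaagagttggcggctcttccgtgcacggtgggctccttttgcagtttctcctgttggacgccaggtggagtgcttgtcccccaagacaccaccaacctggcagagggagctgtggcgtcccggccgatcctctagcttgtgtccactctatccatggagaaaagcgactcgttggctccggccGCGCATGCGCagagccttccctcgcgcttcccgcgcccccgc
Atp5g3: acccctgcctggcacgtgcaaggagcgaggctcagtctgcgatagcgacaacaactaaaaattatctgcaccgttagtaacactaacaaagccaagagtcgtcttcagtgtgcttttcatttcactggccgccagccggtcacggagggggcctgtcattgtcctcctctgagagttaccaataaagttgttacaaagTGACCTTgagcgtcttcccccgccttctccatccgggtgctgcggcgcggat

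The motifs, searched on both strands, were GCGCATGCG for NRF1, CCGGAAG for GABP and other ETS factors, AAGGTCA for the estrogen-related receptors and AAGATGGCG for YY1. The capitals in Slc25a4 are the ETS motif, those in Atp5g2 the NRF1 motif on both strands, which overlap there into a palindrome, and those in Atp5g3 the reverse complement of the receptor motif, while the letters of these motifs were not in the windows of Slc25a5 and Atp5g1. Of the 30 genes, 24 had a window in the RefSeq table. The ETS motif was in 7 of them (29.2%: Atp5e, Atp5h, Atp5j, Atp5l, Cox6b1, Slc25a4 and Uqcrh), against 7.83% of the 27025 genes with a window. A gene counted when any of its windows matched, and the 27025 include genes not measured on the arrays. The NRF1 motif was in 4 (Atp5g2, Atp5k, Atp5l and Cycs; 16.7% against 1.64%), and its complete palindrome in 2 (Atp5g2 and Atp5k; 8.33% against 0.877%). The receptor motif was in 2 (Atp5g3 and Atp5l; 8.33% against 4.70%) and the YY1 motif in 1 (Atp5j; 4.17% against 0.710%). These shares describe letters in a window, and no binding was measured.

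Among the subunit c genes, Atp5g1 differed most between the cells. Atp5g1 measured 10.57 and 11.63 in fibroblasts, 13.05 and 13.07 in neonatal cardiomyocytes and 13.61 and 13.84 in adult ones. The 3 groups stood apart in that order, and Atp5g1 rose by 2.62 in adult cardiomyocytes against fibroblasts (SE 0.37, 6.17-fold, adjusted p = 0.0133 by limma). Atp5g2 measured 11.21 and 11.36, 12.43 and 12.05, and 12.40 and 12.36, with a rise of 1.09 (SE 0.20, adjusted p = 0.0223 by limma) in the same comparison. Its adult arrays lay between its neonatal cardiomyocyte arrays. Atp5g3 measured 12.75 and 13.15, 13.99 and 13.82, and 14.01 and 14.09, with a rise of 1.10 (SE 0.21, adjusted p = 0.0241 by limma). Set against Atp5g2, the log2 difference of Atp5g1 was larger by 1.01 in neonatal cardiomyocytes against fibroblasts, by 0.52 in adult against neonatal cardiomyocytes and by 1.53 in adult cardiomyocytes against fibroblasts. The arrays did not overlap in this ratio in any of the 3 comparisons, and the exact two-sided permutation p was 0.333 in each, the smallest that 2 arrays against 2 allow. For Atp5g3 against Atp5g2 the same quantity was 0.00 in all 3 comparisons, with overlapping arrays. Over the alternative probe sets, the second one of Atp5g1 had the same sign in each comparison, while 2 of the 3 of Atp5g2 had the sign of the one used in each. The lowest of Atp5g2 gave −0.38, −0.38 and −0.75 for neonatal cardiomyocytes against fibroblasts, between the ages and adult cardiomyocytes against fibroblasts. These alternative probe sets gave low signals, between 3.76 and 6.12 for Atp5g1 and between 2.89 and 4.55 for Atp5g2.

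Slc25a4 was higher on the adult than on the neonatal cardiomyocyte arrays and Slc25a5 was lower, with neither difference called. Slc25a4 measured 12.52 and 13.21 in fibroblasts, 14.33 and 14.16 in neonatal cardiomyocytes and 14.40 and 14.48 in adult ones, and rose by 1.58 (SE 0.27, 2.99-fold, adjusted p = 0.0193 by limma) in adult cardiomyocytes against fibroblasts. Slc25a5 measured 12.15 and 12.60, 13.26 and 13.03, and 12.41 and 12.45 for the 3 groups. The neonatal cardiomyocyte arrays of Slc25a5 were above all others, and the adult arrays lay between the fibroblast arrays. The probe set used for Slc25a5 ends in _x_at, a class that can share sequence with other transcripts. Its adult minus neonatal difference was −0.72 (SE 0.22, 95% interval −1.28 to −0.15) with an unadjusted p of 0.0221 and an adjusted p of 0.154 by limma, so it was not called. All 8 probe sets of Slc25a5 were lower in adult than in neonatal cardiomyocytes, by −1.29 to −0.52, and all 8 were higher in neonatal cardiomyocytes than in fibroblasts, by 0.61 to 1.15. Of the adult minus fibroblast differences of Slc25a5, 0.05 for the probe set used (adjusted p = 0.874), 4 of 8 had the same sign, and all 8 lay between −0.15 and 0.51. The log2 difference of Slc25a4 exceeded that of Slc25a5 by 0.62 in neonatal cardiomyocytes against fibroblasts, by 0.91 between the ages and by 1.53 in adult cardiomyocytes against fibroblasts, with non-overlapping arrays and an exact permutation p of 0.333, again the smallest possible. For Slc25a4 itself, 3 of 4 probe sets had the sign of the one used in each comparison, with the lowest between −0.14 and −0.07. The highest gave 1.39 in neonatal cardiomyocytes against fibroblasts, 1.81 between the ages and 2.96 in adult cardiomyocytes against fibroblasts. In that order the one used gave 1.38, 0.19 and 1.58, and its value is near the top of the range. The 1.81 and 2.96 came from a probe set of lower signal, between 4.93 and 8.08 on the arrays.

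**Figure D4:**
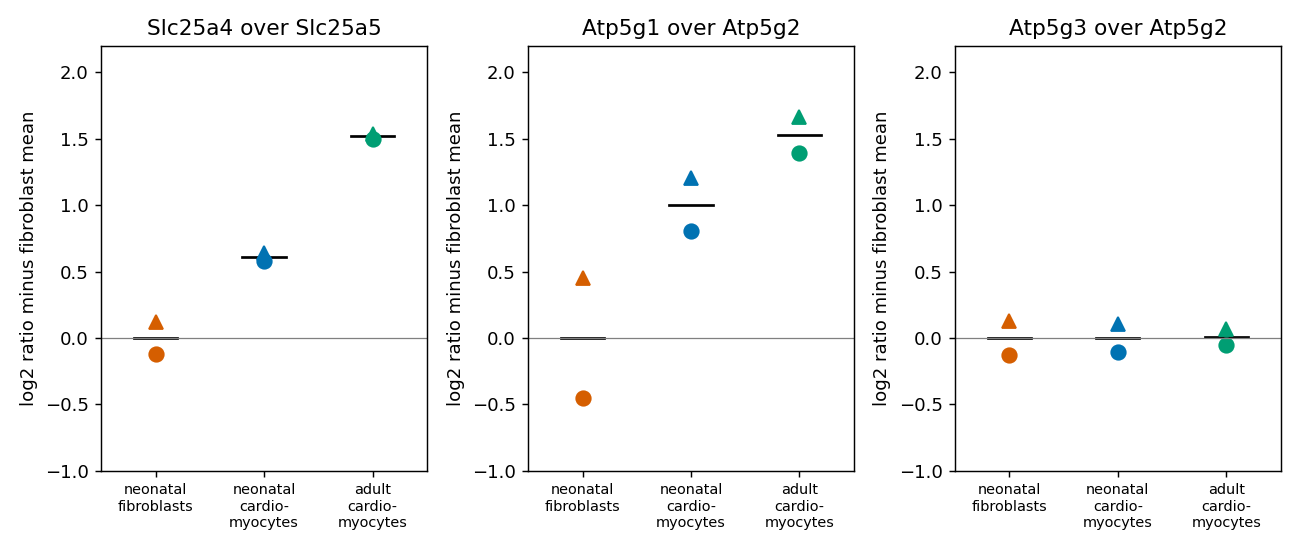
Log2 ratio of related genes on each array, with the fibroblast mean set to 0; circles are replicate 1, triangles replicate 2 and black bars group means. Slc25a4 over Slc25a5 and Atp5g1 over Atp5g2 each reach a mean of 1.53 in adult cardiomyocytes, while Atp5g3 over Atp5g2 stays at a mean of 0.00.

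The rest of the respiratory chain was described from lists of genes. For reading the counts below, limma called 0.676% of all genes higher in neonatal cardiomyocytes than in fibroblasts and 1.08% higher in adult than in neonatal cardiomyocytes. In adult cardiomyocytes against fibroblasts it called 10.1% higher and 11.0% lower. Between the ages, 11.1% of all genes were higher and 11.7% lower at an unadjusted p under 0.05. Of 33 measured complex I genes, which feed electrons from NADH, 33 had a higher mean in neonatal cardiomyocytes than in fibroblasts with a median of 1.30, and 1, the iron-sulfur subunit Ndufs7, was called (1.67, SE 0.18, adjusted p = 0.0424 by limma). In adult cardiomyocytes against fibroblasts, 31 of 33 rose, with a median of 1.84, led by Ndufs1 at 2.91, Ndufv1 at 2.78 and Ndufs7 at 2.76. Between the ages limma called 0 of 33, 11 were higher at an unadjusted p under 0.05, and the median was 0.54. Complex II, which is shared with the citric acid cycle, had medians of 1.69, 0.57 and 2.18 in the order neonatal, between ages and adult. In the last, 3 of its 4 genes rose, Sdhb by 2.46, Sdha by 2.41 and Sdhd by 1.95. All 4 were higher there without overlap and at an unadjusted p under 0.05 by limma, against 37.8% and 17.7% of all genes. The complex III subunits outside the 31 genes, Uqcr10 and Uqcr11, rose in adult cardiomyocytes against fibroblasts by 1.85 and 2.24. Of 11 other complex IV genes, 6 rose in that comparison, led by the muscle isoforms Cox7a1 by 6.38 (SE 1.02), Cox8b by 6.16 (SE 0.86) and Cox6a2 by 5.30 (SE 0.84). These isoforms replace liver-type subunits in heart and skeletal muscle. Their fibroblast arrays lay far apart, with Cox7a1 at 5.34 and 8.55 there and at 13.14 and 13.52 in adult cardiomyocytes. The adult minus fibroblast difference of Cox7a1 was 4.78 without fibroblast replicate 1 and 7.99 without replicate 2. The cardiomyocyte marker median moved the same way between these fibroblast arrays, and its part in the result was not tested. Of 3 measured complex V genes outside the 31, Atp5s rose between the ages by 1.28 (SE 0.17, adjusted p = 0.0364 by limma; 0.0745 to 0.204 with any single array left out), and Atp5s and Atp5md rose in adult cardiomyocytes against fibroblasts by 1.95 and 1.55. The third, the ATP synthase inhibitor Atp5if1, named after its values were seen, measured 11.02 and 10.89 in fibroblasts, 12.36 and 11.88 in neonatal cardiomyocytes and 11.16 and 11.02 in adult ones. Its neonatal cardiomyocyte arrays were the highest, and the adult minus neonatal difference of −1.03 (SE 0.22) had an unadjusted p of 0.0052 and an adjusted p of 0.0865 by limma, so it was not called. Of the 10 listed genes of mitochondrial DNA, mt-Nd5, a complex I subunit, was measured here, and it rose by 1.70 in adult cardiomyocytes against fibroblasts (SE 0.41, adjusted p = 0.0425 by limma).

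Of 28 measured assembly factors of complexes III to V, 11 rose in adult cardiomyocytes against fibroblasts with a median over the list of 1.00, led by Atpaf1, a chaperone of the ATP synthase head, by 2.76, the complex III factor Uqcc1 by 2.74 and the heme farnesyltransferase Cox10 by 2.06. Uqcc1 was the 1 of 28 called in the neonatal comparison (1.61, SE 0.19, adjusted p = 0.0459 by limma), and limma called 0 between the ages, where 7 (of all genes, 11.1%) were higher at an unadjusted p under 0.05. Among 10 genes of phosphate, ADP and outer membrane transport, 5 rose and 1 fell in adult cardiomyocytes against fibroblasts, beside 10.1% and 11.0% of all genes. The mitochondrial creatine kinase Ckmt2, which uses ATP leaving the carrier, rose by 7.46 (SE 1.15). Ckmt2 measured 4.29 and 7.93 in fibroblasts, 11.84 and 11.49 in neonatal cardiomyocytes and 13.69 and 13.45 in adult ones. Without fibroblast replicate 1 the difference was 5.65, and without replicate 2 it was 9.28. The higher of these fibroblast arrays was the one with the higher cardiomyocyte marker median, and the part of that in the result was not tested. The matrix cyclophilin Ppif rose by 3.42, and Slc25a24, a carrier of ATP-Mg and phosphate, fell by 3.37. The other genes that rose were the phosphate carrier Slc25a3 by 1.14 and the outer membrane channels Vdac1 by 1.38 and Vdac3 by 1.03, named after their values were seen. In neonatal cardiomyocytes against fibroblasts and between the ages, limma called 0 of these 10, with list medians of 0.73 and 0.39. At an unadjusted p under 0.05, 5 of the 10 were higher in the first comparison, against 8.95% of all genes. Between the ages 1 was higher and 1 lower by that rule, shares close to the 11.1% and 11.7% of all genes.

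Of 16 regulators of respiratory genes, 13 had a higher mean in neonatal cardiomyocytes than in fibroblasts, as did 47.4% of all genes. The largest difference, 5.75 for Ppargc1a, was not called, and 4 regulators rose. Esrrg, an estrogen-related receptor, rose by 4.30 (SE 0.49), the coactivator Ppargc1b by 3.83 (SE 0.40) and Perm1, a muscle regulator downstream of them, by 3.51 (SE 0.32), with adjusted p from 0.0424 to 0.0441 by limma; the other, named after its value was seen, was Ppara, a receptor for fatty acids, by 2.63. Perm1 measured 4.35 and 5.22 in fibroblasts, 8.21 and 8.38 in neonatal cardiomyocytes and 10.52 and 10.49 in adult ones. It was 1 of 2 regulators that rose between the ages, by 2.21 (SE 0.32, adjusted p = 0.0432 by limma); the other was Ppara by 2.04 (SE 0.28, adjusted p = 0.0408). In adult cardiomyocytes against fibroblasts 8 rose, led by the coactivator Ppargc1a at 5.92, Perm1 at 5.72 and Esrrg at 4.81, and 1 fell, the zinc finger factor Yy1, at −1.40. On the fibroblast arrays Ppargc1a measured 3.93 and 6.79 and Esrrg 3.56 and 4.86, again higher on replicate 2, the array with the higher cardiomyocyte marker median, whose part was not tested. The adult minus fibroblast difference of Ppargc1a was 4.49 without fibroblast replicate 1 and 7.35 without replicate 2, and that of Esrrg was 4.16 and 5.46. Of 15 mitochondrial structure genes, 2 rose in the neonatal comparison, the fusion proteins Mfn2 by 2.41 and Mfn1 by 1.98, and 8 rose in adult cardiomyocytes against fibroblasts, with 0 called by limma between the ages and 5 higher there at an unadjusted p under 0.05. The calls of these lists depended on single arrays. Over the 123 genes of the lists, 8 were called higher in the neonatal comparison, 3 between the ages and 77 in adult cardiomyocytes against fibroblasts, where 2 were called lower. Without adult replicate 1, limma called 0 of all 18193 genes in each comparison, so every call ended. In the neonatal comparison the count over the lists was also 0 without adult replicate 2, without cardiomyocyte replicate 1, without fibroblast replicate 1 and with the replicate number as a block, and 15 without fibroblast replicate 2. Between the ages it was 1 without either fibroblast array and 0 without any other single array. The 77 became 8 without adult replicate 2 and 37 without fibroblast replicate 1. The lists were not tested against each other.

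**Figure D5:**
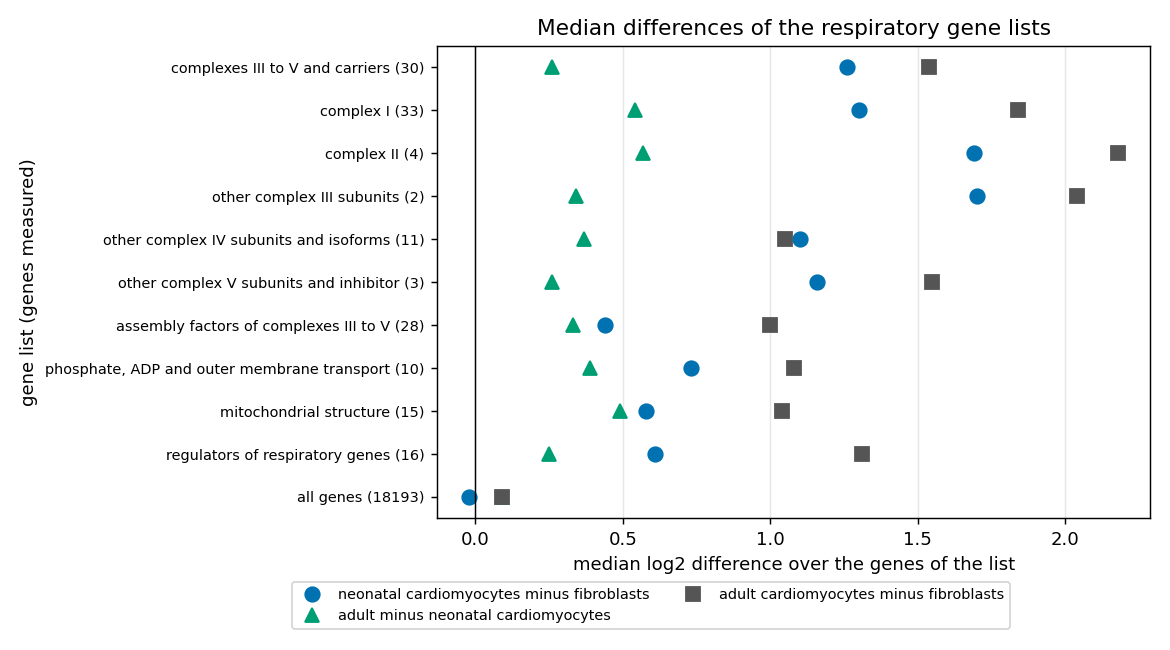
Median log2 difference over the genes of each list in the 3 comparisons. Rows are the members as 1 list, the pathway lists other than mitochondrial DNA genes, and all genes. All genes lie at −0.02 in the neonatal comparison and at 0.09 in the other comparisons, where their points coincide. The members lie at 1.26 in the neonatal comparison, 0.26 between the ages and 1.54 in adult cardiomyocytes against fibroblasts.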

How the data were processed

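The deposited values are log2 RMA signals per probe set, per the submitters' processing notes. RMA subtracts background, quantile-normalizes the arrays and fits 1 value per probe set. The version of RMA and the genome build are not given in the sources used here. Of 45101 probe sets, 64 were controls and 34945 were named to 1 gene by the platform annotation. Each of the 18193 genes was represented by its probe set of highest mean signal across the arrays, and members whose probe sets differ in sign are named with the lowest value. Of the probe sets used for the members, 3 end in _x_at and 9 in _s_at, and these can share sequence with other transcripts.

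Group means of all 6 arrays were fitted in limma 3.58.1 (R 4.3.3; lmFit and eBayes; 3 residual degrees of freedom and 2.18 from the moderated variance). Tests were two-sided, with Benjamini-Hochberg adjustment over all genes and a threshold of 0.05, and the procedure was tested on simulated data. The number of arrays limits the precision. Members and lists were chosen with earlier results of these data known. Named were all members past the threshold, the extremes of each complex and the related genes, and of each pathway list at most the 3 largest calls per comparison, plus the rest of a small count, said to be named after their values were seen. The 16 alternatives covered the titles' grouping, arrays left out, the replicate number as a block, probe set choice, normalization, a filter on the mean, the variance model and the arrays fitted. Promoter windows came from RefSeq (GRCm38.p6).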

Additional observations from a re-analysis of the deposited data

How the results depend on the processing

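Counts called among the 30 genes and their median differences are given in the order neonatal cardiomyocytes against fibroblasts, adult against neonatal cardiomyocytes, and adult cardiomyocytes against fibroblasts; as reported they were 0, 1 and 28, and 1.26, 0.26 and 1.54. With the titles' groups the counts were 0, 0 and 0 and the medians −0.33, 1.07 and 0.75. Without both arrays of conflicting title the counts were 0, 0 and 0, and the medians 0.96, 0.33 and 1.32. With single arrays left out, the counts ran from 0 to 4, from 0 to 0 and from 0 to 28, and the medians from 1.03 to 1.53, from 0.15 to 0.33 and from 1.32 to 1.85. The 1 call between the ages, Cox7c, became 0 with the mean of all probe sets, with the fit of only the groups compared (adjusted p = 0.0764 by limma), and with probe sets not ending in _x_at or _s_at, an alternative chosen after seeing the data. Under that last setting Atp5c1, called higher in adult cardiomyocytes than in fibroblasts, reversed to −0.75 (adjusted p = 0.109 by limma). That value came from its other probe set, which gave a low signal, between 5.02 and 6.25. Testing only the 10666 genes with a mean above 6 gave 4 calls in the neonatal comparison, Uqcrc2, Uqcrh, Cyc1 and Atp5a1; fewer genes were then tested. Shifting all arrays to a common median moved the adult minus fibroblast median of all genes from 0.09 to 0.24 and that of the 30 genes to 1.69. For the other changes the cause was not tested.

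The arrays of different groups share replicate numbers, but nothing in the labels says that a number marks a shared preparation. Replicate 1 minus replicate 2 correlated across genes at 0.183, 0.268 and 0.207 between the 3 pairs of groups. With the replicate number as a block, the counts among the 30 genes were 0, 1 and 28 and the medians 1.26, 0.26 and 1.54, while the genes called among all were 0, 607 and 4811 against 149, 418 and 3829 without it.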
